A study of Mus musculus with 4 samples.

Results

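The genes described here encode the proteins of the cytosolic ribosome, the particle that translates nearly all messenger RNA of the cell. They were chosen by symbol alone, as the genes whose symbol is Rpl or Rps followed by a number, with a final a, x or y where there is one, together with Rplp0, Rplp1, Rplp2 and Rpsa. The rule found 75 of the 22718 genes in the expression files, 46 of the large (60S) subunit and 29 of the small (40S) subunit. The members lay on 19 chromosomes, with 13 on chromosome 7. PolyA RNA was sequenced from mouse embryonic stem (ES) cells, a pluripotent cell type derived from the early embryo, 1 library from wild type cells and 1 from cells labelled Prep1-/-. Both lines are given as C57BL/6 and were grown on gelatin-coated dishes with serum and leukemia inhibitory factor. The Prep1-/- cells are a single line, KO2, so that genotype and line cannot be told apart. Prep1 ChIP-seq of ES cells, given as C57BL/6 by the strain label and as R1 cells by the protocol, supplied a list of bound regions. Prep1, encoded by Pknox1, is a homeodomain transcription factor that binds DNA together with Pbx proteins.

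A ribosome holds 1 copy of nearly every one of these proteins, apart from the acidic proteins of the stalk, so cells make them in matched amounts. Their genes are single units scattered over the genome, and most mRNAs begin with a C followed by a run of pyrimidines, the 5' terminal oligopyrimidine (TOP) tract, through which mTOR signalling adjusts their translation. The short, abundant mRNAs have also been copied back into the genome many times, and the mouse carries processed pseudogenes of nearly all of them. ES cells are known for rapid division and a high demand for ribosomes.

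The files give each gene a read count and an RPKM value, in which reads are scaled to gene length and library size. All read counts together came to 29596294 for wild type and 25717811 for Prep1-/-. The KO/WT ratio sets the Prep1-/- RPKM of a gene over its RPKM in wild type. Each genotype has 1 library, so no difference has a check by replicates, no test of genotypes was possible, and the 95% intervals given are exact (Clopper-Pearson) intervals of the split of a gene's reads, which cover counting error only. The summed counts exceed the number of reads per sample that the methods of the study give, and if a sequenced fragment entered the counts more than once, the intervals and the calls made from them are too narrow. In bulk RNA, fewer cells of a type and less RNA per cell cannot be told apart. Pknox1 itself had 505 reads in wild type and 332 in Prep1-/-, a ratio of 0.736 (0.638 to 0.846), so that its transcript was still counted in the library labelled Prep1-/-. The values do not say which part of the gene these reads came from, so they do not check the label, and Prep1-/- is used here as the submitters' name of that library. The 8 ES cell markers were present in both libraries, with 80096 and 94203 reads in sum, Pou5f1 at 323 and 360 RPKM and 7 of 8 above 1 in ratio. The 6 primitive endoderm markers had 1553 and 608 reads in sum and 5 of 6 were below 1, among them Gata4 with 1156 and 350 reads. The 6 markers of fibroblast feeders had 1667 and 1869 reads in sum, all 6 were above 1, and Lum was at 0 and 2 reads. The part of these differences in the ribosomal protein genes was not tested.

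How much of a member can be told from the rest of the genome differed widely. This can bear on the values that follow, but its part in them was not tested. Each 50-base window of the coding sequences in GENCODE M1 was searched in the mm9 genome, 50 bases being the read length. A window with no exact copy outside its gene is called single-copy, also where it spans an exon junction. Of the 74 members with an identifier there, 26 had no single-copy coding window, and the median share of single-copy windows was 9.15%. By contrast, 50 of the 76 mitochondrial ribosomal protein genes were single-copy over their whole coding sequence. The following coding windows show both ends of this range, read 5' to 3' on the plus strand of mm9, all in lower case since they are compared whole. The first pair are the windows of Rpl7a (chr2:26767890-26767939) and Rps2 (chr17:24858761-24858810) with the most copies, which occurred at 45 and 36 other places. The third window, from Rpl8 (chr15:76735298-76735347), occurred at 0 other places.
Rpl7a: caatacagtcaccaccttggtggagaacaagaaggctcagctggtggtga
Rps2: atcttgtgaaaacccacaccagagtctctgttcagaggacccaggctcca
Rpl8: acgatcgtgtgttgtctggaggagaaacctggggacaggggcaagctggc

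The TOP tract could be seen in the promoter windows of RefSeq (GRCm38.p6), which held 54 of the 75 members. A C followed by 6 or more pyrimidines lay within the 20 bases around the annotated start in 22 of the 54 members (40.7%) and in 10.5% of the 27025 genes with a window. The tracts of 5 members that recur in the results are shown in 30 bases around the start, 5' to 3' on the gene's strand, with the tract found by the search in capitals. The capitals stop where the 20 bases searched end, and in Rpl13a the pyrimidines go on past that end in lower case. They are Rpl13a (chr7:45128731-45128760, minus strand), Rps10 (chr17:27635230-27635259, minus strand), Rps9 (chr7:3704026-3704055, plus strand), Rpl38 (chr11:114668565-114668594, plus strand) and Rps6 (chr4:86857353-86857382, minus strand).
Rpl13a: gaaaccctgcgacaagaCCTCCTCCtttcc
Rps10: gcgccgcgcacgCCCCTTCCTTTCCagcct
Rps9: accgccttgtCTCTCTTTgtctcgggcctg
Rpl38: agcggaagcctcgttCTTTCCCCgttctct
Rps6: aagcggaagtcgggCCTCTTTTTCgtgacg
The word CCGGAAGT, which Ets factors bind, was found on either strand in 11 of the 54 members (20.4%) and in 4.31% of all windows of the same length. TATAAA was found in 6 members (11.1%) against 15.7% of all windows. The words TGANTGAC and TGATTNAT, the words of Prep1-Pbx and Pbx-Hox sites, were found in 1 member each, Rpl38 and Rpl36a, that is 1.85% against 4.72% and 3.74% of all windows. These 2 words differ at the last base, so they cannot match the same 8 bases on 1 strand. A match describes letters only.

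Reads were spread very unevenly over proteins that the ribosome holds in equal number. Rpl8, which lies next to the peptidyl transferase centre, had 52481 reads in wild type and 37818 in Prep1-/-. Rps3, at the entry of the mRNA channel, had 27655 and 20156 reads. Rpl4 had 17963 and 14194 reads, Rps9 had 17941 and 13814 reads, and Rps20 had 17892 and 14020 reads. The 6 members with 10000 or more wild type reads held 79.9% of all wild type member reads and 78.4% of those labelled Prep1-/-. The median member had 329 wild type reads. At the other end stood the rows named Rpl41, with 1 and 0 reads, and Rps13, with 4 and 2 reads, whose identifiers GENCODE M1 gives other names (Gm10180 and Gm10159), so that their reads need not be the level of those proteins. Then came Rpl37 with 18 and 11 reads, Rpl5 with 18 and 23 reads, and Rps23 with 24 and 18 reads. The plot of reads per gene gives both libraries side by side.

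**Figure D1:**
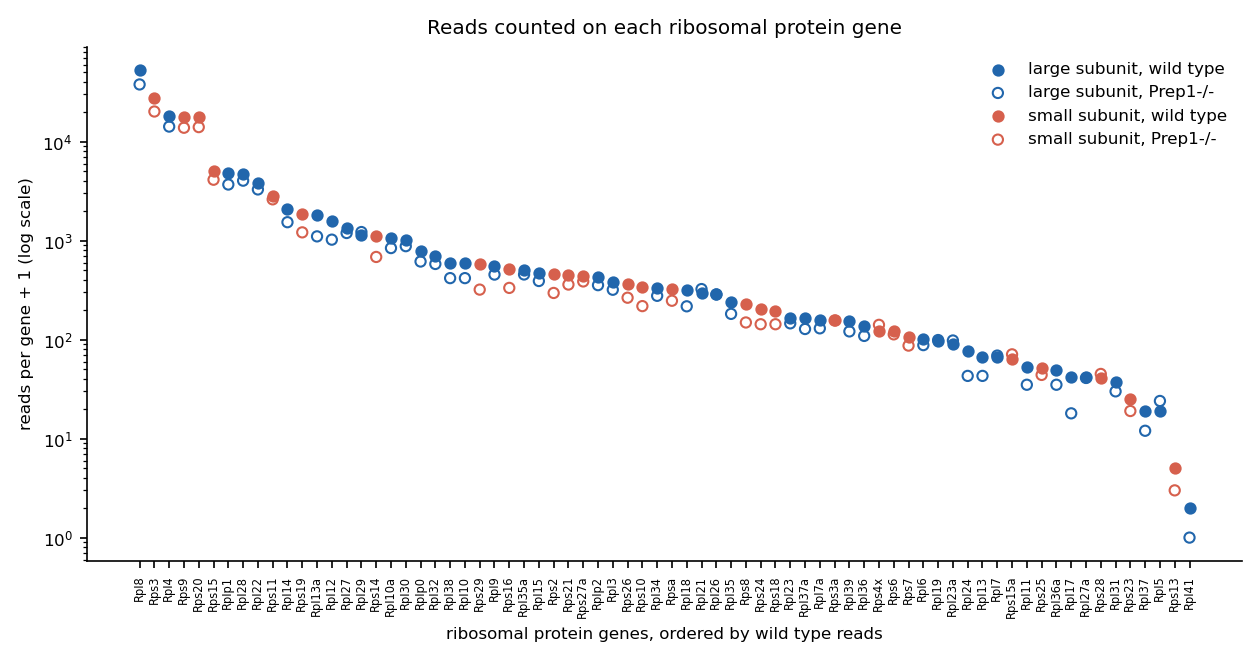
Reads per gene plus 1 on a log axis for 72 of the 75 members, ordered by wild type reads, with filled points for the wild type library and open points for the library labelled Prep1-/-. Counts run from 52481 wild type reads for Rpl8 to 1 for Rpl41, and the open points lie under the filled ones for most members.

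The members with the most reads had much coding sequence found nowhere else, but this did not hold for all well counted members. Rps3 and Rpl8, which had 27655 and 52481 wild type reads, had 91.9% and 91.2% single-copy windows. The 9 members with 50% or more had a median of 17941 wild type reads, with a lowest value of 448 for Rps21, and the 65 members under 50% a median of 238. Across the 74 members, reads and the share of single-copy windows had a Pearson r of 0.731 and a Spearman rho of 0.497, given as a description, since the points share the same libraries. Of the 19 members with known windows and 1000 or more wild type reads, 8 had 50% or more single-copy coding windows and 4 had none (Rpl10a, Rpl12, Rpl27 and Rpl28), and Rps20 had 17892 reads at 14.8%. The 76 mitochondrial ribosomal protein genes had 0.482% of all wild type reads, against 0.798% for the 75 cytosolic ones.

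**Figure D2:**
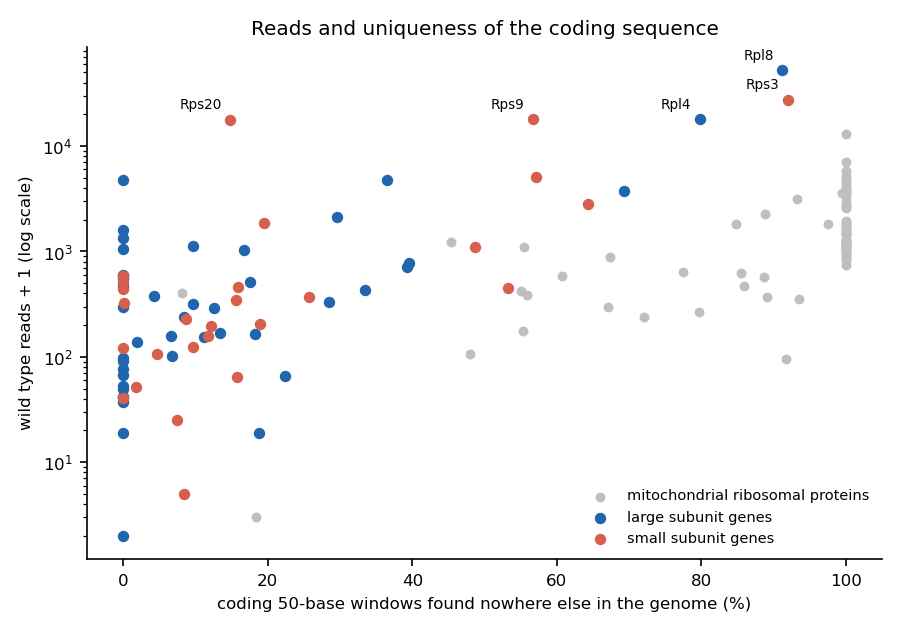
Wild type reads plus 1 (log axis) against the percentage of coding 50-base windows with no exact copy in mm9 outside the gene. Large subunit genes are blue, small subunit genes red and mitochondrial ribosomal protein genes grey, with 72 of the 75 members considered. Rps3 and Rpl8 sit at the upper right, members at 0% have 1 to 4758 reads, and most mitochondrial genes stand at 100%.

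The RPKM values could not be read as levels for many members. A whole gene length was recovered behind every finite RPKM, and for the members it ran from 0 to 2336 bases with a median of 78 bases, against 1671 bases for all genes. In 40 members it was under 100 bases, and in 69 of the 74 members it was not above the number of single-copy exon windows. In 12 members, among them Rpl5, Rpl10a, Rpl17, Rpl23a, Rpl27a, Rpl31, Rpl41, Rps6, Rps23, Rps28 and Rps29, the length was 0 and RPKM was listed as Inf. On the RPKM scale the highest large subunit member was thus Rpl35, with 7371 in wild type and 6276 in Prep1-/- from 238 and 181 reads over a length of 1 base. Next came Rpl8 with 3211 and 2588 over 504 bases. In the small subunit Rps20 had 4118 and 3608 over 134 bases, and Rpsa, also known as the laminin receptor, had 1998 and 1704 over 5 bases. The lowest RPKM in the large subunit were those of Rpl18 with 4.22 and 3.20, Rpl21 with 11.2 and 13.8, and Rpl7 with 22.4 and 26.1. In the small subunit they were those of Rps13 with 3.50 and 2.35, Rps15a with 7.83 and 9.72, and Rps2 with 53.5 and 38.5. Among the 35 members with 100 bases or more, wild type RPKM still spanned 975-fold. The same length was used in both libraries, so it cancels in the KO/WT ratio of a gene.

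The ribosomal protein genes as a set had a smaller share of the reads in the library labelled Prep1-/-. They took 236055 wild type reads, 0.798% of the total (exact 95% interval 0.794 to 0.801%), and 174756 reads labelled Prep1-/-, 0.680% (0.676 to 0.683%). The ratio of these shares was 0.852 (0.847 to 0.857). It was 0.874 (0.866 to 0.883) for the large and 0.835 (0.828 to 0.842) for the small subunit. Since few genes hold so many of the reads, the ratio was also taken over the members under 10000 wild type reads, where it was 0.917 (0.904 to 0.929). The mitochondrial ribosomal proteins had a ratio of shares of 1.02 (1.01 to 1.02).

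Counted gene by gene, most members were modestly lower. All 63 members with a finite RPKM exceeded 1 RPKM in each library, and 52 of them (82.5%) had a KO/WT ratio below 1, against 58.8% of the 13218 genes that exceed 1 RPKM in each library. The median log2 ratio of the members was -0.18 (order-statistic 95% interval -0.29 to -0.12), which is a ratio of 0.884. The median of all genes was -0.07, a ratio of 0.955. Order-statistic intervals of medians take genes as independent draws. Genes of the same libraries are not, so these intervals describe spread among genes and do not test the genotypes. The middle 50% of the members lay between 0.782 and 0.953. The interval of the ratio lay below 1 in 25 of the 63 members (39.7%), against 36.8% of all genes tested. It lay above 1 in 2 members (3.17%), Rpl21 and Rpl29, against 20.8% of all genes tested. At the thresholds of the study, 4 of 63 members (6.35%) had a ratio under 0.7, against 13.8% of the 13795 genes over 1 RPKM in wild type. No member of 63 had a ratio above 1.5, against 7.2% of the 13677 genes over 1 RPKM in Prep1-/-. Members were thus shifted to lower ratios as a set, while fewer of them passed either threshold than genes at large. Of the 2211 other genes over 50 RPKM in wild type, 6.51% were under 0.7, 0.995% above 1.5 and 65.3% below 1. The share of members under 0.7 was close to that of these highly expressed genes. Setting the median of all genes to 1 left a member median of -0.11, and by the size factors of DESeq2 it was -0.10.

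The shift was seen at each depth of counting. The 6 members with 10000 or more reads in all had a median ratio of 0.838, and all 6 were below 1, among them Rpl8 at 0.806 and Rpl4 at 0.884. The 1231 other genes of that depth had a median of 0.977, with 692 below 1. Between 1000 and 10000 reads the medians were 0.897 for 18 members and 0.954 for 6784 other genes. Between 200 and 1000 reads they were 0.896 for 27 members and 0.934 for 3310 other genes. Under 200 reads they were 0.854 for 12 members and 0.996 for 1830 other genes.

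**Figure D3:**
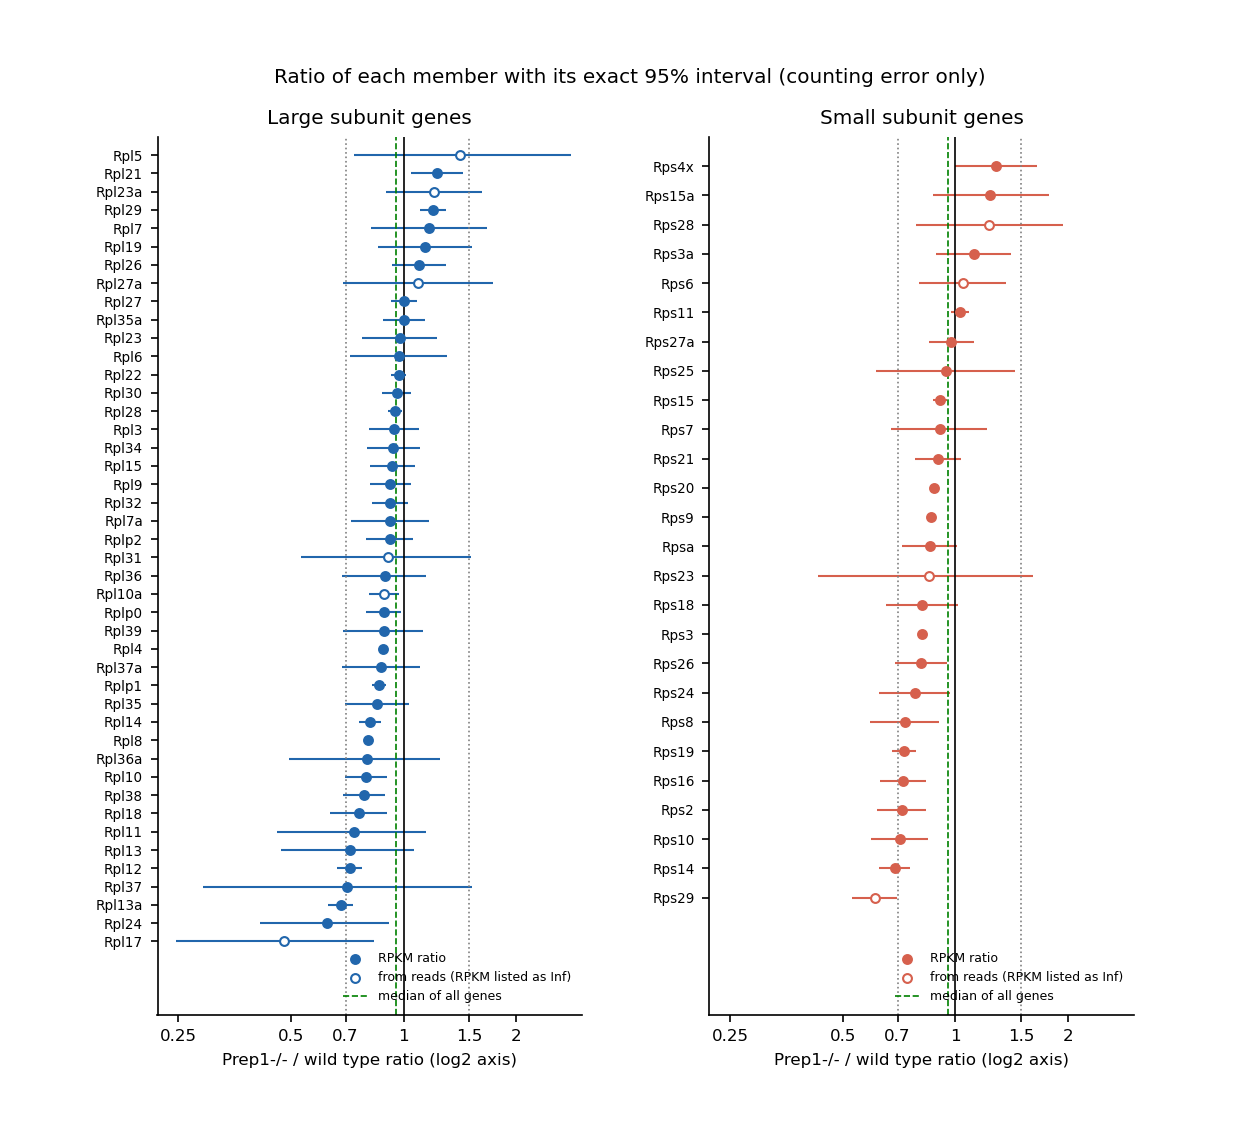
KO/WT ratio of the members shown, each with 20 or more reads (log2 axis) with its exact 95% interval, for the large subunit (left) and the small subunit (right), filled for RPKM ratios and open where RPKM is listed as Inf and the ratio is taken from reads plus 1. Dotted lines mark 0.7 and 1.5, and the dashed line marks the median of all genes at 0.955. Most points lie between 0.7 and 1.

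The small subunit genes had somewhat lower ratios than the large subunit genes, with wide overlap. In the large subunit, 32 of 39 members were below 1, with a median log2 ratio of -0.12 (-0.23 to -0.08) and ratios from 0.624 to 1.23. In the small subunit, 20 of 24 were below 1, with a median of -0.26 (-0.45 to -0.14) and ratios from 0.671 to 1.28. The medians differed by 0.14 on the log2 scale, and their intervals overlapped. The difference was -0.02, with the order of the subunits turned, when the 48 members for which the files also list a pseudogene were left out. Genes are not replicates, and the subunits were not tested against each other.

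In the large subunit the lowest ratio was that of Rpl24, a protein that forms a bridge to the small subunit, with 76 and 42 reads and 0.624 (0.413 to 0.912). In GENCODE M1 the identifier of Rpl24 also covers transcripts of a second coding sequence downstream. Rpl13a, known for silencing selected mRNAs outside the ribosome, had 1817 and 1103 reads, RPKM of 460 and 312, and a ratio of 0.679 (0.629 to 0.732). Of the ratios under 0.7 in either subunit, this one had the most reads behind it. Rpl37 had 18 and 11 reads and a ratio of 0.706, with an interval from 0.292 to 1.53 that allows either direction. The highest ratios were those of Rpl21 with 294 and 323 reads (1.23, 1.05 to 1.44), Rpl29, a heparin-binding protein, with 1137 and 1220 reads (1.20, 1.11 to 1.30), and Rpl7 with 65 and 68 reads (1.17, 0.820 to 1.67). Only the first pair of these intervals lie above 1.

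In the small subunit, Rps14, whose loss of 1 copy underlies the anaemia of the human 5q- syndrome, had 1112 and 683 reads and a ratio of 0.687 (0.623 to 0.756). Rps10 had 342 and 217 reads (0.711, 0.596 to 0.843), and Rps2, near the decoding centre, had 459 and 295 reads (0.719, 0.619 to 0.834). Rps13, with 4 and 2 reads, had a ratio of 0.671 that the counts cannot place, from 0.051 to 3.90. Rps19, the gene most often mutated in Diamond-Blackfan anaemia, was close to these, with 1861 and 1211 reads and 0.728 (0.676 to 0.783). Higher ratios were those of Rps4x with 122 and 140 reads (1.28, 0.999 to 1.65), Rps15a with 63 and 70 reads (1.24, 0.871 to 1.77) and Rps3a with 155 reads in each library (1.12, 0.889 to 1.41). None of these last 3 intervals excludes 1.

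The 12 members listed as Inf can be followed only by their reads, with the ratio taken from the counts plus 1 at the same scale. Rps29 had 586 and 319 reads, a ratio of 0.610 (0.529 to 0.699), lower than any finite member. Rpl17 had 41 and 17 reads and a ratio of 0.479 (0.247 to 0.834), and Rpl41 had 1 and 0 reads. With the 12 included, 7 of 75 members were under 0.7, and these count Rpl41 and Rps13 with their few reads. Among all genes with a finite RPKM over 1 in wild type, 13.8% were under 0.7. Rpl10a had 1060 and 840 reads (0.886, 0.808 to 0.971). Rpl5, which binds the 5S rRNA and, when free, the p53 ligase Mdm2, had 18 and 23 reads (1.41, 0.738 to 2.81). Rps6, the substrate of the S6 kinases, had 120 and 112 reads (1.04, 0.799 to 1.36). Rpl23a, Rpl27a, Rpl31, Rps23 and Rps28 had 24 to 90 wild type reads and intervals that include 1.

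Members with known roles at functional sites or outside the ribosome were a list chosen by hand. Of that list, Rps6 and Rpl5, given above, were at 1.04 and 1.41, with intervals that include 1. The further members given here all had ratios below 1. The stalk proteins, which recruit the elongation factors, were all under 1, with 776 and 614 reads for Rplp0 (0.885, 0.795 to 0.985), 4785 and 3687 reads for Rplp1 (0.862, 0.825 to 0.900) and 431 and 354 reads for Rplp2 (0.919, 0.796 to 1.06). Rpl11, the partner of Rpl5 in Mdm2 binding, had 52 and 34 reads (0.738, 0.460 to 1.15), and Rpl23, which can bind Mdm2 too, had 166 and 145 reads (0.978, 0.776 to 1.23). Rpl22, a protein needed in T cell development, had 3786 and 3288 reads (0.971, 0.926 to 1.02). Rpl38, on which the translation of Hox mRNAs depends in the embryo, had 595 and 417 reads (0.784, 0.690 to 0.890). Rpsa had 323 and 246 reads (0.852, 0.718 to 1.01), and Rps27a, made as a fusion with ubiquitin, had 443 and 386 reads (0.975, 0.848 to 1.12). Of these 9, the interval lay below 1 for Rplp0, Rplp1 and Rpl38, against 36.8% of all genes tested. Rpl13a, Rps14, Rps19 and Rpl10, given in other paragraphs, are on the list too. They were at 0.679, 0.687, 0.728 and 0.794, with intervals below 1.

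The 4 members on chromosome X and the 4 listed on chromosome 8 were examined apart because gains or losses of whole chromosomes occur in ES cell lines. On chromosome X, Rpl10, which acts late in the maturation of the large subunit, had 588 and 417 reads (0.794, 0.698 to 0.901). Rpl36a had 48 and 34 reads (0.799, 0.495 to 1.25), Rpl39, which lines the exit tunnel, had 152 and 120 reads (0.884, 0.689 to 1.13), and Rps4x stood at 1.28. On chromosome 8, Rpl13 had 66 and 42 reads (0.718, 0.471 to 1.06) and Rps26 had 365 and 264 reads (0.810, with an interval below 1), beside Rps13 at 0.671. Without these 8 members the median log2 ratio of the rest was -0.17. In GENCODE M1 the identifier given for Rps26 is named Rps26-ps1, that for Rps13 Gm10159 and that for Rpl41, on chromosome 9, Gm10180, and a row on chromosome 10 that M1 names Rps26 had 2035 and 1545 reads (0.849, 0.794 to 0.907).

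The files list further copies of these genes under clone names. By their GENCODE M1 name or by their description, 136 rows were copies of 52 cytosolic ribosomal proteins, among them rows that M1 names as the parent gene and that the symbol rule does not reach, such as Rps26 and Rps12. These rows held 20545 wild type reads and 16225 reads labelled Prep1-/-, but 88 of them had 5 or fewer wild type reads. Only 12 rows had 100 or more. Rows that carry many reads can hold more than the gene they copy. Rpl14-ps1 had 8394 and 6713 reads, while Rpl14 had 2107 and 1534. Rpl10a-ps1 had 4728 and 3761 reads against 1060 and 840 for Rpl10a. Rpl38-ps2 had 1511 and 1178 reads, and Rps24-ps3 had 1193 and 995 reads against 204 and 142 for Rps24.

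Copies and members mostly stood on the same side of 1. Of the 13 proteins with 100 or more wild type reads in copies, 12 also have a member, and in 10 of these both ratios were below 1. A ratio below 1 was common to begin with, at 82.5% of the members tested and 58.8% of all genes. Copies had more reads than the member in 8 of the 13, counting Rps12, which has no member. They also count Rps26, where M1 gives the name Rps26 to the copy row and Rps26-ps1 to the member. The ratio was 0.894 for the copy of Rpl14 and 0.814 for Rpl14 itself, with intervals of 0.866 to 0.923 and 0.762 to 0.870. For Rps16 the copy had 405 and 264 reads and a ratio of 0.730, next to 513 and 332 reads and 0.724 for the gene. The exceptions were Rpl36a and Rpl9, whose copies together were at 1.06 and 1.04 with intervals that include 1. The 8 copies of Rpsa, with 121 and 58 reads, were at 0.541 (0.385 to 0.739), against 0.852 for Rpsa. Reads of a near-identical copy and of its parent cannot be told apart by sequence where the windows are shared. Their ratios need not be separate observations. Adding the reads of copies to their members gave a median log2 ratio of -0.18 over all 75, -0.15 for the large and -0.23 for the small subunit.

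**Figure D4:**
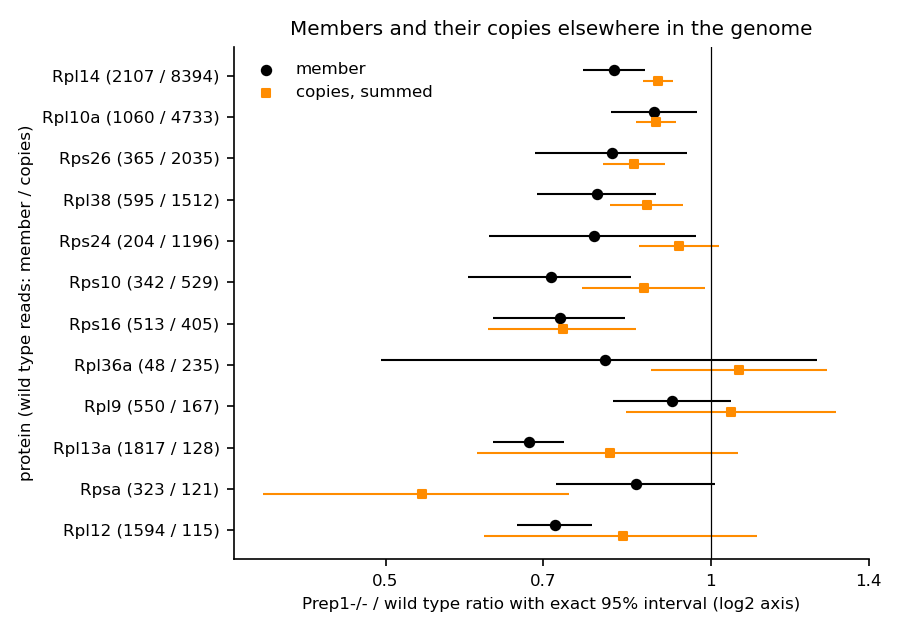
KO/WT ratio (log2 axis) from reads plus 1, with exact 95% intervals, of 12 members (black circles) and of their summed copies elsewhere in the genome (orange squares), for proteins with 100 or more wild type reads in copies. Numbers beside each name are wild type reads of the member and of its copies, and 10 of the 12 proteins have both values below 1. For Rps26 the row plotted as the copy is the one that GENCODE M1 names Rps26.

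A Prep1 peak lay at the start of few ribosomal protein genes. With a window from 500 bases before to 100 bases after the start annotated in GENCODE M1, 6 of 74 members (8.11%) overlapped a peak, against 7.6% of all 21446 annotated genes and 10.7% of the 13234 annotated genes with wild type RPKM over 1. Peak height is the fold enrichment over input, from 4 to 336 with a median of 21 over the 3902 peaks. The highest was at Rplp0 (chr5:116008827-116009872 on mm9) with 189, a percentile of 97.7 among all peaks, and its centre lay 126 bases before the start. At Rps29 (chr12:70259779-70260576) the height was 76, and the centre lay 4 bases before the start. Rpl31 (chr1:39424278-39424854) had 16, Rpl13 (chr8:125626040-125626533) had 14 and Rps10 (chr17:27773001-27773658) had 10. The centre of the Rps10 peak lay 244 bases after the start, outside the window that the peak overlapped. Of the 6 peaks, 3 were higher than the median peak, among them those of Rplp0 and Rps29.

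The core of the Prep1 site was looked for in these peaks on mm9. TGANTGAC was found on either strand within the 200 bases at the centre of 36.3% of all peaks, and in the member peaks at that place in Rps29 alone. Allowing any base at the seventh position, as TGANTGNC, which includes every TGANTGAC, the share was 56.1% of all peaks, and Rpl13 was added. Over the whole peaks the wider word was found in Rps29 at 2 places, and at 1 place each in Rpl13 and Rps10, among others. In Rplp0, with the highest peak, and in Rpl31 these letters were not found. Matches are shown with 11 bases on each side, with the word in capitals, on the strand that carries it. They are Rps29 at chr12:70260179-70260208 and chr12:70260215-70260244 (plus strand), Rps10 at chr17:27773415-27773444 (minus strand) and Rpl13 at chr8:125626242-125626271 (plus strand).
Rps29, 20 bases before the start: tccgcgtgctcTGAGTGACatttctaaggc
Rps29, 56 bases before the start: ggcgggcacagTGAGTGACgtcacggcccg
Rps10, 144 bases after the start: ggctttcgtgtTGATTGACagacagtaaat
Rpl13, 6 bases after the start: tcgcctgatttTGATTGGCgtttgagattg

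The KO/WT ratio of the 6 members with a peak was below 1 in each, with 0.610 for Rps29 as the lowest and a median of 0.801. The 68 annotated members without one had a median of 0.888, from 0.479 for Rpl17 to 1.41 for Rpl5, and 52 of them were below 1. Among all annotated genes over 1 RPKM in each library, the 1378 with a peak had a median of 0.920 and the 11329 without one 0.957. Of those with a peak 66.2% were below 1, and of those without one 58.4%. The intervals lay below 1 for Rps29, Rps10 and Rplp0 and included 1 for Rpl13 and Rpl31. Of all genes tested, 36.8% had an interval below 1. The groups of members with and without a peak overlapped, and the difference between them was not tested.

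Paralogs, which can take the place of a ribosomal protein in some tissues, held the largest ratio of the genes described here. Rpl39l, a paralog of Rpl39 known from the testis, had 35 reads in wild type and 365 in Prep1-/-, with RPKM of 1.54 and 17.6 and a ratio of 11.4 (8.23 to 17.0). Rpl10l, another paralog of the testis, listed under a clone name, had 24 and 59 reads (2.68, 1.68 to 4.62). Rpl3l, known from muscle, had 14 and 21 reads (1.64, 0.813 to 3.57), and Rpl22l1 had 12 and 6 reads (0.602, 0.172 to 1.61). Of the paralogs with more reads, the values were 940 and 729 reads for Rpl36al (0.867, 0.786 to 0.956), 2130 and 1772 for Rps27l, a p53 target (0.930, 0.873 to 0.991), and 2804 and 2514 for Rpl7l1 (1.00, with an interval that includes 1). Rps4y2 on chromosome 6, the name in the files for the paralog Rps4l of Rps4x, which RefSeq lists as a transcribed pseudogene, had 8194 and 9436 reads and a ratio of 1.29 (1.25 to 1.33), next to 1.28 for Rps4x with 122 and 140 reads. Of the 8 paralogs, 3 passed 1.5 (37.5%, against 7.2% of all genes), among them Rpl3l, whose interval includes 1. Of the 7 over 1 RPKM in wild type, 1 was under 0.7 (14.3%, against 13.8% of all genes). It was Rpl22l1, whose interval includes 1 too.

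The symbol rule leaves out small subunit proteins with other names. Gnb2l1, the scaffold protein Rack1 of the subunit head, had 64755 and 55304 reads, more than any member, and a ratio of 0.955 (0.944 to 0.966), at the median of all genes. Fau, which encodes the small subunit protein S30, had 38 and 28 reads with RPKM listed as Inf.

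Genes that build the ribosome had a median ratio above 1. In the list of 38 ribosome biogenesis genes, none passed 0.7 or 1.5 (13.8% and 7.2% of all genes), and of the 37 over 1 RPKM in each library 27 were at or above 1, with the interval above 1 in 20 (54.1%, against 20.8% of all genes) and below 1 in 7 (18.9%, against 36.8%). The median ratio was 1.07. The lowest were Nob1, the nuclease that finishes 18S rRNA, with 5999 and 4074 reads (0.759, 0.730 to 0.790), and Sbds, which acts late in large subunit maturation, with 2188 and 1642 reads (0.839, 0.787 to 0.895). The highest were Dkc1, the pseudouridine synthase, with 2040 and 2444 reads (1.34, 1.26 to 1.42), and Npm1, a nucleolar chaperone, with 1108 and 1285 reads (1.30, 1.20 to 1.41). Of 15 other genes whose mRNAs also carry a TOP tract, 10 were above 1, with a median ratio of 1.06. The 10 initiation, elongation and poly(A)-binding factors among them split 5 below and 5 above 1, with a median of 0.988, and the other 5, Naca, Hnrnpa1, Nap1l1, Tpt1 and Npm1, lay between 1.13 and 1.30. The lowest were Eef2, the translocase, with 71102 and 54994 reads (0.865, 0.855 to 0.875), and Eef1d with 9110 and 7466 reads (0.916, 0.889 to 0.945). The highest were Npm1, which is in both lists, and Tpt1 with 1310 and 1490 reads (1.27, 1.18 to 1.37).

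The 75 mitochondrial ribosomal proteins over 1 RPKM were close to evenly split, with 39 below 1 (52.0%, against 58.8% of all genes), a median ratio of 0.997 and none past either threshold (13.8% and 7.2% of all genes). The interval lay above 1 in 16 (21.3%, against 20.8%) and below 1 in 23 (30.7%, against 36.8%). The lowest were Mrpl34 with 2788 and 1778 reads (0.713, 0.672 to 0.757) and Mrps11 with 1204 and 812 reads (0.754, 0.689 to 0.825). The highest with 20 or more reads were Mrpl15 with 3561 and 4185 reads (1.31, 1.26 to 1.37) and Mrpl27 with 105 and 122 reads (1.30, 0.993 to 1.70). Their coding sequences are mostly single-copy, unlike those of the cytosolic members, and what part this has in the difference between the groups was not tested. The groups overlapped in ratio throughout, and no test between them was run.

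**Figure D5:**
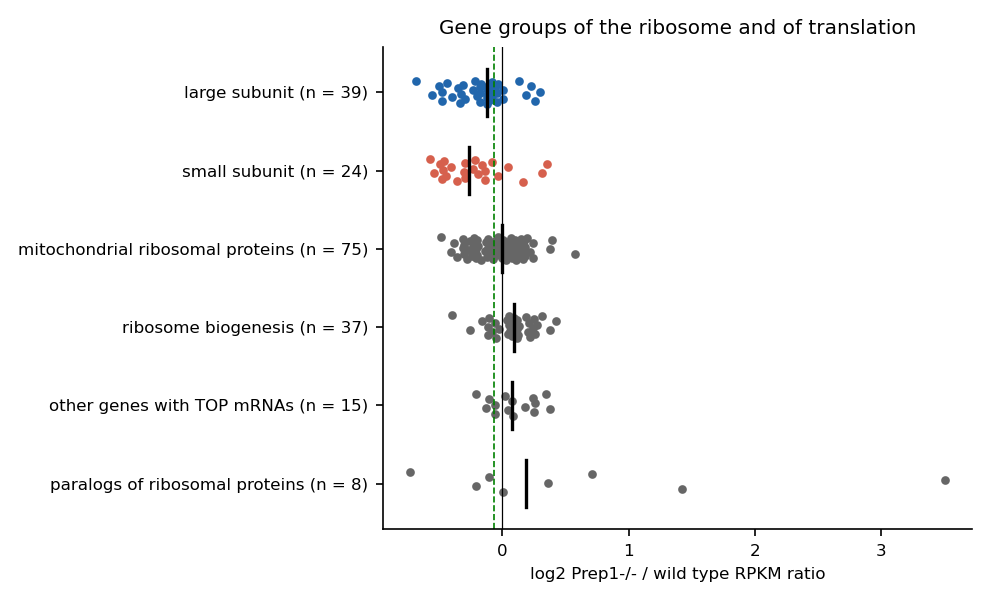
log2 KO/WT RPKM ratio of single genes (points) and their median (black bar) for the ribosomal protein genes by subunit and for 4 related lists, with a dashed line at the median of all genes (-0.07). Values need over 1 RPKM in each library except for the 8 paralogs, which are all shown. The medians of both subunits lie left of the dashed line, those of the other groups lie right of it, and Rpl39l lies far to the right of all.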

How the data were processed

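The authors sequenced polyA RNA as paired-end 50-base reads and assigned them to Ensembl 63 genes with RSEM, and the submitters' notes also name DESeq, BWA, MACS and mm9, with no version. The deposited read counts are whole numbers per gene, without normalization. The deposited RPKM equals (count + 1) scaled to gene length and library size, and with library sizes of 32424958 and 28999201 every finite value gave a whole gene length (100% within 0.01 base). RPKM is Inf for 85 genes. The ChIP-seq peak list carries a score, which the authors' MACS gave as fold enrichment over input, from 1 ChIP library against 1 input library.

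The ratio used RPKM without a pseudocount, or counts plus 1 times 1.12 where RPKM is Inf. Genes needed RPKM above 1, and thresholds were 0.7 and 1.5, those of the study. Each genotype has 1 library, so counts were not tested across replicates, and intervals cover counting error only because reads are not independent molecules. The calculation was tested on simulated data. The members and lists were chosen with earlier results of these data known. Named genes were members past a threshold, the 3 lowest and 3 highest of each subunit in ratio (20 or more reads) and RPKM, those on chromosomes X and 8, those with a peak at the start, members with known special roles, all paralogs and other subunit proteins found, and the lowest 2 and highest 2 of each further list. A few genes that meet these rules are not reported here by name or shown in plots with gene names. List genes were matched by file symbol or by the GENCODE M1 symbol of the same identifier. Coordinates are mm9 with GENCODE M1, and promoter windows are RefSeq GRCm38.p6. Alternatives were other scalings (edgeR 4.0.16 and DESeq2 1.42.0 in R 4.3.3), pseudocounts, filters, memberships, thresholds and peak windows. The word TGANTGNC, the match of Rps4l to Rps4y2 by its RefSeq synonym, the split of the TOP list by kind of protein and the alternatives on Inf members, low reads, members with the most reads and added copies were chosen after seeing the data. Calculations ran in Python 3.11.15 (scipy 1.17.1, pandas 2.3.3, numpy 2.4.6) with figures from matplotlib 3.10.9. The input DNA sample was not analysed on its own here.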

Additional observations from a re-analysis of the deposited data

How the results depend on the processing

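Of 112 recomputed values, 86 stayed within the interval of the reported value or, for counts, within 1.5 times of it. Some of the 86 could not move. A common scaling leaves the large minus small difference as it was, and removing the RPKM filter leaves the same members. The 86 also include a difference whose sign turned, given below, since the interval of that difference runs from -0.095 to 0.363. The median log2 ratio of the members, -0.18, was -0.11 with the median of all genes set to 1, -0.11 with TMM factors (edgeR) and -0.10 with DESeq2 size factors. That of the large subunit, -0.12, was -0.081 per summed reads, -0.056 with the median set to 1, -0.052 with TMM and -0.048 with DESeq2 factors. The 4 members under 0.7 became 1 with the median set to 1, with TMM, with DESeq2 factors and at a threshold of 1/1.5, 0 at a threshold of 0.5, 2 without members that have a pseudogene row, 7 with Inf members taken from counts and 7 with reads of copies added. The 2 intervals above 1 became 4 under each of the 4 other scalings and 0 without the members that have a pseudogene row, and the 25 below 1 became 8 without them. The ratio of read shares, 0.852, was 0.880 with Fau and Gnb2l1 added, 0.839 without the members that have a pseudogene row, 0.912 from RPKM sums and 0.917 without the members that have 10000 or more wild type reads. The 6 peaks at starts became 3 among the peaks with higher scores. The large minus small difference, 0.14, turned to -0.02 without the members that have a pseudogene row, where the small subunit median went from -0.26 to -0.16. Where fewer members or peaks enter, counts are smaller by construction, and for the other shifts the cause was not tested.

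No paired analysis was possible because each genotype has 1 library. Genotype, line and library cannot be told apart, leaving out a replicate was not possible, and the intervals leave out variation between cultures. Members with shared sequence depend on how reads were assigned among copies, and members under 20 reads in all, Rps13 and Rpl41, cannot be placed on either side of 1.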
